A study of Mus musculus with 4 samples.

Results

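The genes described here are 9 mouse genes of the Notch output layer, namely *Hes1*, *Hes3*, *Hes5*, *Hes6*, *Hes7*, *Hey1*, *Hey2*, *Heyl* and *Nrarp*, taken by name from the probes of a two-colour expression array. They are 9 of 36499 distinct gene names on the array, each is measured by 1 probe with 1 spot per array, and 6 of them passed the detection filter. RNA came from neural stem/progenitor cells (NSPCs) of Slc:ICR mouse embryos at embryonic day 13.5, grown as neurospheres in medium with B-27, EGF and FGF-basic. On every array the cells of one channel had received 20 μM PJ34, an inhibitor of poly(ADP-ribose) polymerases, and the cells of the other channel had not. There were 2 arrays of wild-type NSPCs and 2 arrays of *Trp53*-/- NSPCs, which lack p53 and came from a line kept as heterozygotes. The labels give Slc:ICR for both genotypes. The study obtained the heterozygous mice from the RIKEN BioResource Center, and whether the wild-type embryos were littermates is not stated. Every array had separately prepared RNA, which gives n = 2 per genotype. PJ34 was always in the Cy5 channel, so a dye bias of a probe and the effect of PJ34 cannot be told apart within a genotype. The length of the treatment is not given in the labels.

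When a Notch receptor binds a Delta or Jagged ligand on a neighbouring cell, its intracellular part is cut free, enters the nucleus and joins the DNA-binding protein RBPJ. The complex switches on a small set of direct targets, among them the Hes and Hey genes. Their products are basic helix-loop-helix repressors, which hold down proneural genes and keep NSPCs undifferentiated. *Hes1* and *Hes5* are the main effectors of Notch in the embryonic brain, *Hes6* acts against *Hes1* and goes with neuronal differentiation, and *Nrarp* is a Notch target whose product restrains the pathway. *Hes7* is best known from the segmentation clock of the embryo.

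Responses were read as log2 ratios of PJ34 over control, so that -1 is a 2-fold decrease. Members were selected on these same arrays, with their PJ34 ratios and untreated levels known, and *Hes5* was known to have the lowest ratio in wild-type. Their ratios and levels are therefore a description. Where the fit's calls are printed for members, they mark which values met the criteria below and are no independent test. Genes were called by the criteria of the study's methods, a p and a Storey q below 0.05 in limma and a change of more than 2-fold, over 20227 genes that passed the filter.

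Among the arrays, *Trp53*-/- replicate 2 stood apart in sex-linked genes. On that array *Eif2s3y* and *Ddx3y*, on the Y chromosome, had log2 ratios of 4.22 and 3.12, and *Xist*, which is expressed from the inactive X chromosome, had -1.39. The corresponding ratios on the other 3 arrays lay between -0.20 and 0.84. Both Y-linked genes were called in *Trp53*-/- over both arrays (q = 0.039 and 0.044 in limma), and without replicate 2 their ratios were -0.20 and -0.20 and neither was called. In untreated cells the mean log2 levels of *Eif2s3y* and *Ddx3y* were 8.71 and 8.15 in wild-type and 6.12 and 6.10 in *Trp53*-/-, and both were called (q = 0.00878 for each in limma). The sex of the embryos is not in the labels, and its part in the ratios of this array and in the untreated comparison was not tested. The members' ratios in *Trp53*-/- are therefore given for each array. Between 21505 and 27156 of 55681 probes were well above background in a channel of an array, and saturation was absent. *Trp53* itself had control levels of 8.28 and 8.51 in wild-type and of 7.56 and 7.82 in *Trp53*-/-, on the log2 intensity scale. Where its probe lies relative to the deleted part is not given in the sources used here. All 10 listed stem and progenitor markers, such as *Nes* and *Sox2*, were well above background in both channels of all arrays.

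RefSeq promoters (GRCm38.p6) are shown for *Hes5*, *Hes6* and *Nrarp*, the members whose mean ratio lay below -0.5 in a genotype, so that the motifs before the starts of the most lowered members can be set side by side. The table had entries for 5 of the 9 members, with 6 starts, and *Hes1*, *Hes3*, *Hey1* and *Heyl* have none. Each sequence is the 250 bases before a transcription start, read 5′ to 3′ on the strand of the gene. Capitals mark matches, on either strand, to the RBPJ site (tgggaa, or ttcccac, whose first 6 letters are tgggaa on the other strand), the E box (cacgtg), the N box (cacnag) and the class C site (cacgcg), the last 3 of which are sites that Hes and Hey proteins are known to bind.
Hes5, chr4:154960673-154960922, plus strand: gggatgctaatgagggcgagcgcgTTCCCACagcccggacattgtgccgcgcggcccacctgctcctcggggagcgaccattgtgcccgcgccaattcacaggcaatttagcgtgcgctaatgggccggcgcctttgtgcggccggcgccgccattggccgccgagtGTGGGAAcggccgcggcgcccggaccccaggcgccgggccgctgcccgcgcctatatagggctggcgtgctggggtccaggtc
Hes6 start 1, chr1:91414039-91414288, minus strand: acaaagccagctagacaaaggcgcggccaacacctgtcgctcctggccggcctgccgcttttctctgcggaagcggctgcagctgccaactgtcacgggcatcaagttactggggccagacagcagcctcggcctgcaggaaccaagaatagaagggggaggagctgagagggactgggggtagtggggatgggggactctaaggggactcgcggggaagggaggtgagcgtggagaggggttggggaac
Hes6 start 2, chr1:91413223-91413472, minus strand: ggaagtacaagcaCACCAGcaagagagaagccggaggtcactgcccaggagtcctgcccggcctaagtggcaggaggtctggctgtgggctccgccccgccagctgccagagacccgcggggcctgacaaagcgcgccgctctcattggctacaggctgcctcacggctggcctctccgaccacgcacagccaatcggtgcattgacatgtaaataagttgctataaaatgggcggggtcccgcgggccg
Nrarp, chr2:25180508-25180757, plus strand: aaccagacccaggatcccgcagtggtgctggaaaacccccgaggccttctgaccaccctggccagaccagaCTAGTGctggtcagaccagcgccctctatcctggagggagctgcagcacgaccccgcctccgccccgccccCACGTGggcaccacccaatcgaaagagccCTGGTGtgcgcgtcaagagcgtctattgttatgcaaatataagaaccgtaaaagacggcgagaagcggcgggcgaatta

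The *Hes5* stretch held 2 matches to the 7-letter RBPJ site, at positions -226 to -220 on the plus strand and -83 to -77 on the minus strand, counted back from the start. Such a match occurs in 5.42% of the 32851 mouse promoter stretches of this length, and the 6-letter form in 21.6%. *Hes7* and *Hey2* had 1 match each, whereas neither start of *Hes6* nor the start of *Nrarp* had any. *Nrarp* held an E box at -108 to -103, as 6.02% of all stretches do, and 2 N boxes, which 36.7% hold at least once. The second start of *Hes6* had 1 N box. *Hes7* carried 1 N box and a class C site, the latter found in 7.62% of stretches. These matches describe the letters in the window and were not measured as binding.

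**Figure D1:**
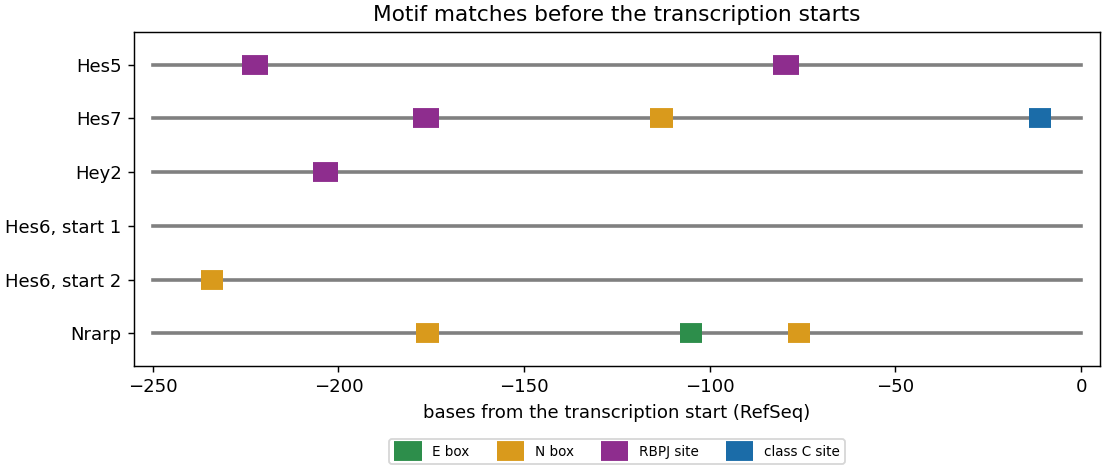
Motif matches in the 250 bases before the RefSeq transcription starts of 5 members, by distance from the start in bases (x axis), with 1 line per start (y axis) and coloured blocks for the motifs on either strand, the RBPJ site in its 7-letter form. Hes5 carries 2 RBPJ sites, Hes7 and Hey2 carry 1 each, and Hes6 and Nrarp carry none in this window.

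*Hes5*, the Notch effector of dividing neural progenitors, had the lowest mean ratio of the 20227 genes in wild-type NSPCs after loess with an offset of 50, while *Mfng* was lower than *Hes5* with an offset of 16 (-1.91 against -1.80), with the scanner's ratios (-2.42 against -1.83), with median centring (-1.16 against -1.11) and without wild-type replicate 1 (-1.68 against -1.50). Its log2 ratios there were -2.01 in replicate 1 and -1.50 in replicate 2, which are decreases of 4.04-fold and 2.84-fold. In *Trp53*-/- its log2 ratios were -0.85 and -0.44, or 1.80-fold and 1.36-fold lower. Both wild-type arrays lay below both *Trp53*-/- arrays, without overlap, though how many of all genes separate in this way was not counted. The mean was -1.76 ± 0.36 (SD, n = 2) in wild-type and -0.65 ± 0.29 in *Trp53*-/-, so that 29.6% and 63.9% of the control level remained; when ratios were centred on the median instead of loess, the means were -1.11 and 0.24, against medians over all genes of 0.46 and 0.63. The probe lies at chr4:154336347-154336406 of mm9, the build of the files, and the files do not say whether this is coding or untranslated sequence.

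The uncorrected spot intensities of *Hes5* in the control channel were 2541 and 2800.2 in wild-type and 2522 and 2864 in *Trp53*-/-. In the PJ34 channel they were 887 and 2369 in wild-type and 3211 and 4479 in *Trp53*-/-. With PJ34 the lowest was on wild-type replicate 1. These intensities are not scaled between arrays. The Cy5 channel was brighter throughout, with medians over all probes of 74.1 to 82.4 against 45.0 to 54.0 in Cy3. The scanner software's own log ratios for *Hes5*, on the log2 scale, were -2.12 and -1.54 in wild-type and -0.86 and -0.43 in *Trp53*-/-.

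By the criteria above, *Hes5* was the 1 member called in wild-type, where 0.213% of all genes were called lower. At a q below 0.05 whatever the fold, 4 of the 6 measured members were lower in wild-type, *Hes5*, *Hes6*, *Nrarp* and *Hes1*, beside 11.3% of all genes. In *Trp53*-/- none of the 6 was called, beside 0.272% of all genes called lower. At that q without a fold limit 3 members were lower there, *Hes5*, *Hes6* and *Nrarp*, beside 10.5% of all genes, and *Hey1* was higher, beside 12.8%. With median centring all 6 were above 0 in *Trp53*-/-, as were 18514 of all 20227 genes. In wild-type 3 were then above and 3 below 0, where 18483 of all genes were above. The response of *Hes5* in wild-type minus that in *Trp53*-/- was -1.11 with a standard error of 0.19, or 2.16-fold, and it was called, beside 0.0346% of all genes called lower in that difference. No other member was. This call was lost without wild-type replicate 1, where the difference was -0.86, and without *Trp53*-/- replicate 2, where it was -0.91, both under 2-fold; it was also lost with an offset of 16 (-1.14) and with the scanner's ratios (-1.19). Because these contrasts were known when the genes were picked, nothing is read from the counts. Fewer cells that express a gene and less of its RNA per cell cannot be told apart in such samples.

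**Figure D2:**
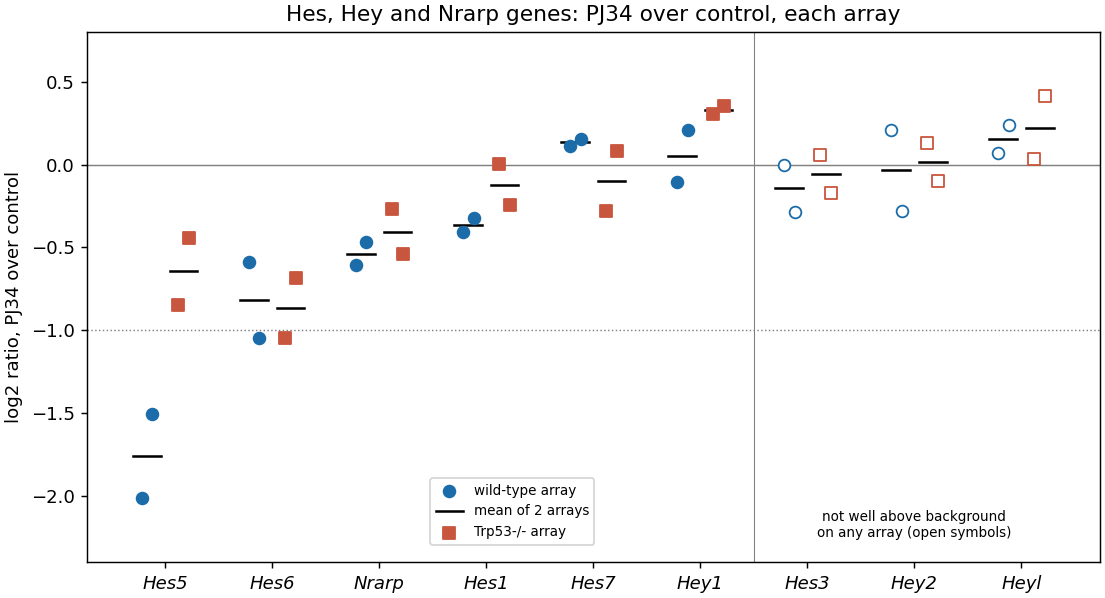
Log2 ratio of PJ34 over control (y axis) of the 9 genes (x axis) on each array, circles for wild-type and squares for Trp53-/-, with black bars for the mean of 2 arrays and a dotted line at a 2-fold decrease. Hes5 lies at -2.01 and -1.50 in wild-type and at -0.85 and -0.44 in Trp53-/-, after loess. With median centring the Trp53-/- means of Hes5, Hes6 and Nrarp are above 0 but below the median over all genes, 0.63. Open symbols are genes not well above background.

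*Hes6*, which opposes *Hes1* and accompanies neuronal differentiation, was lower with PJ34 on all 4 arrays after loess, by similar amounts in both genotypes, whereas with median centring its mean in *Trp53*-/- was 0.03. The log2 ratios were -0.59 and -1.05 in wild-type and -1.05 and -0.68 in *Trp53*-/-. The ranges of the genotypes overlapped fully, and the means were -0.82 ± 0.32 (SD, n = 2) and -0.87 ± 0.26. Their difference was 0.05 with a standard error of 0.18. The wild-type mean with median centring was -0.15. Under that setting the medians over all genes were 0.46 in wild-type and 0.63 in *Trp53*-/-, above *Hes6* in both. One array more or less decided on which side of a 2-fold change *Hes6* fell, since it was called in wild-type without replicate 1 (-1.05) and in *Trp53*-/- without replicate 2 (-1.05). The probe is at chr1:93308264-93308323 of mm9.

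*Nrarp*, a Notch target that dampens the pathway, measured -0.61 and -0.47 in wild-type and -0.27 and -0.54 in *Trp53*-/-, as log2 ratios. The genotypes overlapped. The means were -0.54 ± 0.10 (SD, n = 2) and -0.41 ± 0.19, a decrease of 1.45-fold and 1.33-fold. With median centring they were -0.24 and 0.14, so the sign in *Trp53*-/- turned. Both values stayed below the medians over all genes under that setting, 0.46 and 0.63. The scanner's ratios were farther from 0, with -0.95 and -0.99 in wild-type and -0.38 and -0.81 in *Trp53*-/-. This spot was dim, with control intensities between 87.3 and 203. The probe is at chr2:25038038-25038097.

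*Hes1*, the other main Notch effector in the embryonic brain, measured -0.41 and -0.32 on the wild-type arrays and 0.00 and -0.24 in *Trp53*-/-, again as log2 ratios. The wild-type arrays were close to each other, while *Trp53*-/- replicate 1 was at 0. The means were -0.36 ± 0.06 (SD, n = 2), or 1.29-fold, and -0.12 ± 0.17; with median centring they were 0.03 and 0.45, so the sign in wild-type turned, though the value stayed below the median over all genes. The difference between the genotypes, -0.24 with a standard error of 0.14, was not called. Of the 2 main effectors, *Hes1* thus had a wild-type log2 ratio of -0.36 and *Hes5* one of -1.76. The probe is at chr16:30067820-30067879.

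*Hes7*, the segmentation clock gene, stayed near a ratio of 1. Its log2 ratios were 0.11 and 0.16 in wild-type and -0.28 and 0.08 in *Trp53*-/-, with means of 0.13 ± 0.03 (SD, n = 2) and -0.10 ± 0.26; with median centring they were 0.68 and 0.53. The sign differed between the *Trp53*-/- arrays. The probe is at chr11:68936702-68936761.

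*Hey1*, a Notch target of the related Hey family, went the other way in *Trp53*-/-. Its log2 ratios were 0.30 and 0.35 there, close to each other, and -0.10 and 0.21 in wild-type, with opposite signs. The means were 0.33 ± 0.03 (SD, n = 2), or 1.26-fold, and 0.05 ± 0.22, and the difference of wild-type minus *Trp53*-/- was -0.28 with a standard error of 0.14, which was not called. With median centring *Hey1* came to 1.17 in *Trp53*-/- and was then called, where the median over all genes was 0.63. The probe is at chr3:8663432-8663491.

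*Hes3*, *Hey2* and *Heyl* were not well above background in either channel of any array, so they have no ratio to report. Their uncorrected intensities lay between 32.7 and 51.9 in the control channel and between 54.9 and 73.7 in the PJ34 channel. The dimmest probes that were well above background had 53.7 to 65.1 and 74.95 to 83.2. Their probes are at chr4:151660083-151660142, chr10:30552729-30552788 and chr4:122926975-122927034 of mm9. *Hes3* is otherwise known from early neural progenitors and *Hey2* and *Heyl* from the heart and vessels.

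Over the 6 measured members the median log2 ratio was -0.45 in wild-type and -0.26 in *Trp53*-/-, beside medians over all genes of 0.03 and 0.03. With median centring *Hes5*, *Hes6*, *Nrarp* and *Hes1* were above 0 in *Trp53*-/-, at 0.24, 0.03, 0.14 and 0.45, and all 4 stayed below the median over all genes of 0.63 under that setting.

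**Figure D3:**
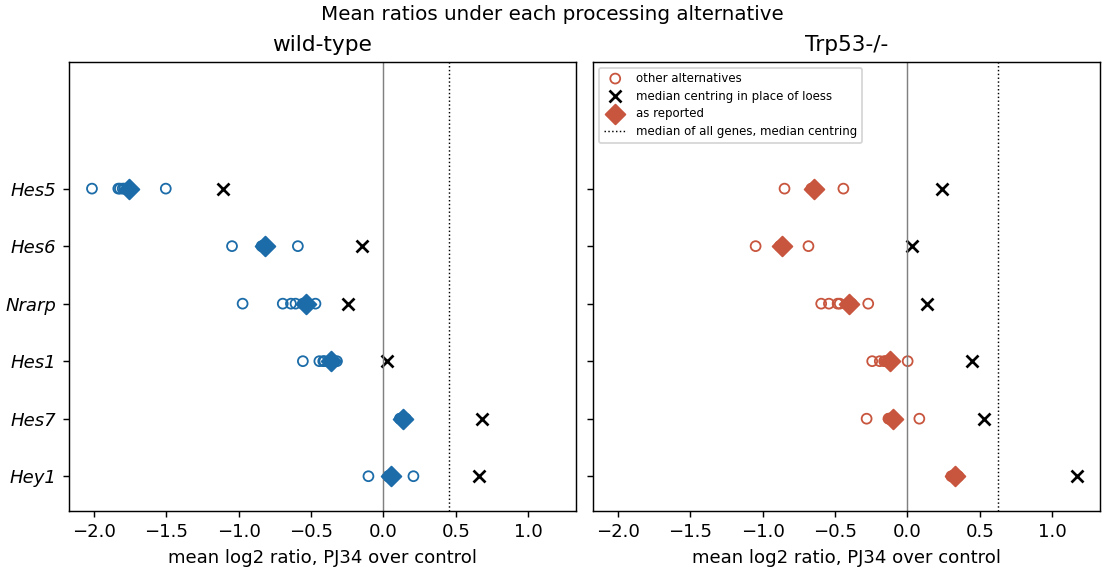
Mean log2 ratio of PJ34 over control (x axis) of the 6 measured members (y axis) in wild-type (left) and Trp53-/- (right) under each processing alternative and with each array left out, with diamonds for the reported value, crosses for median centring and a dotted line for the median over all genes under median centring. Median centring moves every member upwards, Hes5 to -1.11 in wild-type and to 0.24 in Trp53-/-, while for Nrarp in wild-type the scanner's ratios lie farther from the reported -0.54, at -0.97, than median centring does, at -0.24.

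Untreated levels were compared in the control channel, on the log2 intensity scale after quantile normalization between arrays. *Hes5* had 11.56 and 12.48 in wild-type and 11.73 and 11.79 in *Trp53*-/-. The *Trp53*-/- arrays lay between the wild-type arrays, whose own span was 0.92. The mean difference, *Trp53*-/- minus wild-type, was -0.26 with a standard error of 0.31. *Hes6* showed the same picture, with 11.98 and 12.93 in wild-type and 12.02 and 12.17 in *Trp53*-/-. For *Hes1* the *Trp53*-/- arrays likewise lay between the wild-type values of 8.44 and 7.71. Of the 6 members 0 were called between untreated cells, beside 3.78% of all genes in either direction. With a q below 0.05 whatever the fold there were 0 members, beside 741 higher and 731 lower of all 20227 genes.

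In 3 members the untreated genotypes did not overlap, and none of the 3 had a q below 0.05. How many of all genes separate in this way was not counted, so nothing is read from this number. *Hes7* was 9.01 and 9.01 in wild-type and 8.63 and 8.18 in *Trp53*-/-, a difference of -0.60 with a standard error of 0.20. *Hey1* was 10.04 and 10.25 in wild-type and 10.47 and 10.49 in *Trp53*-/-, a difference of 0.34 with a standard error of 0.17. *Nrarp* was 7.91 and 7.29 in wild-type and 8.09 and 8.07 in *Trp53*-/-, a difference of 0.48 with a standard error of 0.24. None of them reached a 2-fold difference.

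Across the 4 conditions, *Hes5* was highest in untreated wild-type (mean 12.02), followed by untreated *Trp53*-/- (11.76), PJ34-treated *Trp53*-/- (11.12) and PJ34-treated wild-type (10.26). Of the neighbours in this order, only untreated and treated *Trp53*-/- did not overlap. Treated *Hes5* was 9.55 and 10.98 in wild-type and 10.88 and 11.35 in *Trp53*-/-, which overlap, so the genotypes separate in the ratios within arrays and not in the treated levels between arrays. *Hes6* followed the order untreated wild-type (12.45), untreated *Trp53*-/- (12.10), treated wild-type (11.64) and treated *Trp53*-/- (11.23), again with a gap only between untreated *Trp53*-/- and its lower neighbour. For *Hes1* all neighbours in the order overlapped, with means between 7.71 and 8.07.

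*Hey1* was ordered by genotype, with treated *Trp53*-/- at 10.81 above untreated *Trp53*-/- at 10.48 and both without overlap above the wild-type levels of 10.20 with and 10.14 without PJ34, which overlapped. *Hes7* was ordered by genotype the other way, and for neither gene had the untreated difference a q below 0.05. Its levels of 9.15 and 9.01 in treated and untreated wild-type lay without overlap above the overlapping *Trp53*-/- levels of 8.41 and 8.31. *Nrarp* ran from 8.08 in untreated *Trp53*-/- to 7.06 in treated wild-type, and its lower 3 levels overlapped each with the next.

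**Figure D4:**
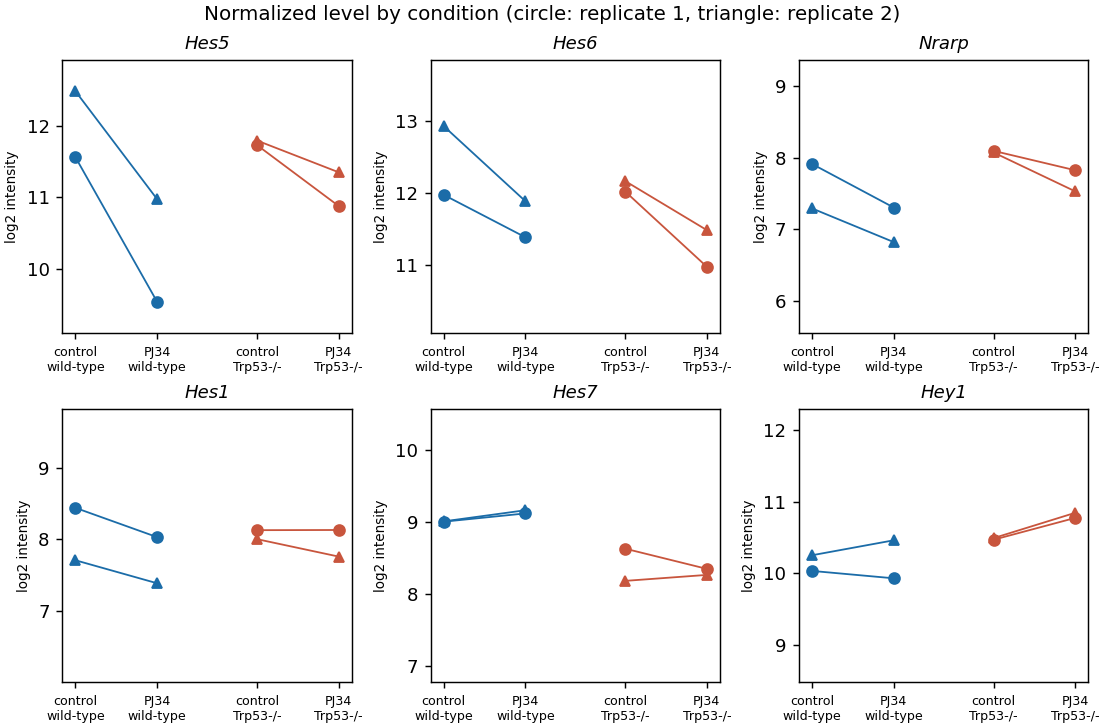
Normalized log2 intensity (y axis, each panel spanning the same range) of the 6 measured members in the 4 conditions (x axis), wild-type in blue and Trp53-/- in red, with a line joining the 2 channels of an array. The Hes5 lines fall most steeply in wild-type, from 11.56 to 9.55 and from 12.48 to 10.98, and the lines of the other genes run flatter.

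Some markers of other cell types moved with the genotype. Of 10 oligodendrocyte lineage markers, all well above background on every array, 9 had a ratio below 0 in *Trp53*-/-. There 7 were lower at a q below 0.05, beside 10.5% of all genes. The median of the 10 was -0.34 in *Trp53*-/- against 0.02 in wild-type. With median centring 7 were above 0 in *Trp53*-/-, beside 18514 of all 20227 genes, and the medians were 0.41 there and 0.43 in wild-type. The summed untreated intensity of this list was 41859 to 43706 in wild-type and 46164 to 52951 in *Trp53*-/-, and with PJ34 it was 38592 to 53343 and 39437 to 43703. Of 7 astrocyte markers, 6 or 7 were well above background per channel, and their summed untreated intensity was 30854 to 33715 in wild-type and 36692 to 39475 in *Trp53*-/-. With PJ34 it was 21841 to 29339 and 37723 to 46234. *Gfap* had a ratio of 1.62 on *Trp53*-/- replicate 2 and between -0.28 and 0.00 on the other arrays. The 8 neuron markers had medians of 0.14 and 0.04 in the 2 genotypes, with 7 or 8 of them well above background, and summed untreated intensities of 14051 to 20175 in wild-type and 21718 to 26649 in *Trp53*-/-. Of 6 microglia markers 2 were well above background (*Csf1r* and *Itgam*), and the summed untreated intensity of the list was 6155 to 7276 in wild-type and 3903 to 4496 in *Trp53*-/-. Of 5 endothelial markers at most 2 were (*Kdr* and *Pecam1*), with sums of 8183 to 8622 and 3305 to 3687. Of 5 mesenchymal markers at most 1 was (*Col1a2*). *Aif1*, *Cx3cr1*, *Cdh5*, *Cldn5* and *Col1a1* did not pass the filter. The markers named here were picked after their values were seen. The part of these cell types in the Hes and Hey values was not tested.

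The rest of the Notch pathway was counted over 45 genes in 5 lists, receptors, ligands, fringes and processing enzymes, the nuclear complex, and inhibitors, of which 44 were measured. In wild-type 11 of the 44 were higher and 6 lower at a q below 0.05, beside 13.6% and 11.3% of all genes. In *Trp53*-/- 4 were higher and 6 lower, beside 12.8% and 10.5% of all genes. The median ratio was 0.04 in wild-type, and in *Trp53*-/- 22 were above and 22 below 0. With median centring the counts at that q were 28 higher and 1 lower in wild-type and 33 higher and 1 lower in *Trp53*-/-, beside 11950 higher and 84 lower, and 13667 higher and 89 lower, among all genes. After loess 1 pathway gene in each genotype changed by more than 2-fold. *Rbpj*, the DNA-binding partner of all 4 receptors, had ratios of -0.23 and -0.15 in wild-type and -0.03 and -0.18 in *Trp53*-/-, with means of -0.19 and -0.11 and q = 0.0947 and 0.229 in limma. With median centring the means were 0.36 and 0.67. The gene was picked out after its values were seen.

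*Mfng*, a fringe glycosyltransferase that tunes which ligand a receptor answers to, was the 1 pathway gene called in each genotype. Its log2 ratios were -1.45 and -1.68 in wild-type (q = 6.32e-05 in limma) and -0.82 and -1.41 in *Trp53*-/- (q = 0.000445). It fell on all 4 arrays. The genotypes did not overlap, but their nearest arrays, at -1.45 and -1.41, lay close together, and how many of all genes separate in this way was not counted. The difference between the genotypes was -0.45 (q = 0.218 in limma). In *Trp53*-/- the call was lost without replicate 2 (-0.82) and with median centring (-0.65).

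*Notch3*, a receptor, was called for its difference between the genotypes, beside 0.435% of all genes called higher in that difference. Its log2 ratios were 0.95 and 0.26 in wild-type and -0.66 and -0.71 in *Trp53*-/-. The signs were opposite between the genotypes after loess, where the *Trp53*-/- mean was -0.69. With median centring the means were 1.22 in wild-type and 0.13 in *Trp53*-/-, against medians over all genes of 0.46 and 0.63. After loess the difference was 1.30 with a standard error of 0.20 (q = 0.0111 in limma). Without wild-type replicate 1 it was 0.95, under 2-fold, and with an offset of 16 or the scanner's ratios q was 0.0915 and 0.257. *Notch2*, another receptor, had mean ratios of 0.32 in wild-type and 0.27 in *Trp53*-/- (q = 0.0174 and 0.0367), the latter from 0.34 and 0.19.

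Among the other lists, *Dll3*, a ligand that acts inside the cell that makes it, had mean ratios of -0.70 in wild-type and -0.54 in *Trp53*-/- (q = 0.000624 and 0.00307 in limma), the latter from -0.68 and -0.39, and with median centring of -0.09 and 0.28. *Neurl1b*, a ubiquitin ligase that acts on ligands, rose by 0.69 and 0.47 (q = 0.000497 and 0.00404), with 0.54 and 0.40 on the *Trp53*-/- arrays. *Snw1*, a partner of RBPJ, rose by 0.24 and 0.43 (q = 0.0473 and 0.00591), with 0.49 and 0.37 on those arrays. *Dtx1*, a Deltex gene of Notch regulation, fell by 0.62 and 0.93 (q = 0.00072 and 0.000213), with -0.98 and -0.87 on those arrays, and it stood 1.85 higher in untreated *Trp53*-/- than in untreated wild-type (standard error 0.37, q = 0.0328). With median centring the *Dtx1* ratios were -0.05 and -0.07, and the untreated call was lost without either *Trp53*-/- array, where no gene at all was called, and also with Benjamini-Hochberg adjustment, without a filter on dim probes and with the processed signal (adjusted p or q of 0.0574, 0.0666 and 0.0581).

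Hes and Hey proteins work with partners that were also on the array. Of 12 co-repressors and dimer partners, 3 rose and 4 fell in wild-type at a q below 0.05, beside 13.6% and 11.3% of all genes, and 3 rose and 2 fell in *Trp53*-/-, beside 12.8% and 10.5%. With median centring 8 and 10 rose and none fell, where 11950 and 13667 of all 20227 genes rose. *Tle3*, a Groucho co-repressor that Hes proteins recruit, had the largest mean change, -0.73 ± 0.26 (SD, n = 2) in wild-type and -0.70 ± 0.06 in *Trp53*-/-, where the arrays had -0.66 and -0.75 (q = 0.00071 and 0.00145 in limma), and with median centring -0.13 and 0.14. Of 10 listed proneural genes that Hes proteins repress, 4 were measured, and they went both ways. At a q below 0.05, 2 were higher and 1 lower in wild-type, and 1 was higher and 2 lower in *Trp53*-/-, beside the same shares of all genes. From this list *Insm1*, a zinc finger gene of neurogenic divisions, rose by 0.63 and 0.70 (q = 0.0017 and 0.00161 in limma). Its *Trp53*-/- arrays had 0.85 and 0.54. Of 4 other hairy and E(spl) related genes 3 were measured, and *Bhlhe40*, a clock-linked repressor, had mean ratios of -0.28 and -0.34 (q = 0.0335 and 0.0178; with median centring 0.24 and 0.46), with -0.40 and -0.29 on the *Trp53*-/- arrays, and stood 1.18 higher in untreated *Trp53*-/- (q = 0.0228), a call that was likewise lost without either *Trp53*-/- array.

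**Figure D5:**
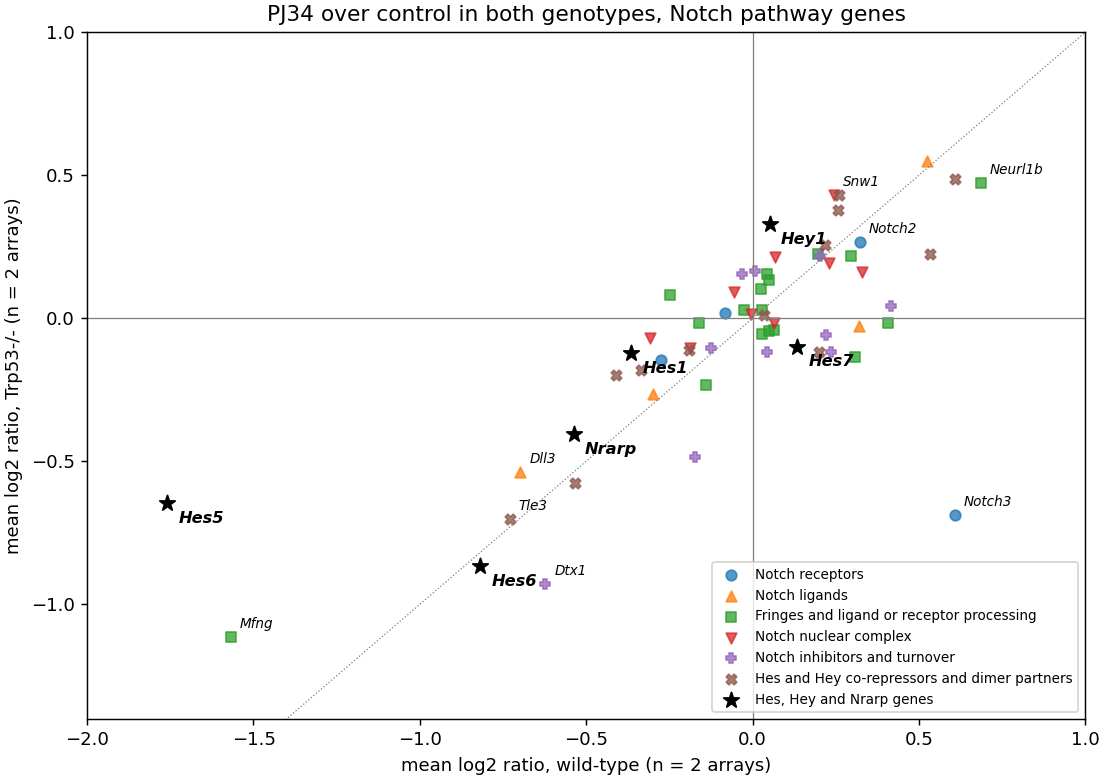
Mean log2 ratio of PJ34 over control in wild-type (x axis) and Trp53-/- (y axis), n = 2 arrays each, for the 6 measured Hes, Hey and Nrarp genes (stars) and the lists of Notch pathway genes and partners, with a dotted line of equal response. Hes5 and Mfng lie farthest to the left, at -1.76 and -1.57. Notch3 has opposite signs in the genotypes after loess. With median centring its Trp53-/- mean is 0.13, where the median over all genes is 0.63.

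The 4 genes whose ratios over the 4 arrays were nearest to those of *Hes5*, out of 20226 others, were *Lss*, *Mboat1*, *Rlbp1* and *Mvd*, with Euclidean distances of 0.76, 0.78, 0.81 and 0.92 on the log2 scale. *Lss* and *Mvd* encode enzymes of cholesterol synthesis, *Mboat1* an enzyme that adds fatty acids to phospholipids, and *Rlbp1* a binding protein of retinoids. *Lss*, the nearest, measured -1.29 and -1.32 in wild-type and -0.83 and -0.56 in *Trp53*-/-; with median centring its *Trp53*-/- mean was 0.05. None of the other measured genes of the Hes, Hey and *Nrarp* group was among the 4. *Hes3*, *Hey2* and *Heyl* had not passed the filter and were not compared.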

How the data were processed

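The arrays were Agilent SurePrint G3 Mouse GE, and the authors extracted the spots with Agilent Feature Extraction 10.7.3.1, per the labels. The intensity values deposited by the authors and used here are the mean of each spot and the median of its local background, in 2 colours and uncorrected. The log10 ratios that the authors deposited are background-subtracted and dye-normalized by that software and served only as an alternative, converted to log2. One more table holds 4 columns of normalized values and was left aside, since its column names match no array. Probe positions are on mm9.

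The background was corrected by normexp (limma 3.58.1, R 4.3.3; offset 50) and ratios were normalized by loess within arrays. Control and outlier spots were left out. Probes entered when, on both arrays of either genotype, 1 or more channels stood well above background (27042 of 55681 probes), and a gene was read from its brightest probe. Symbols came through RefSeq accessions for 47.2% of probes, otherwise from the files. The limma model had 1 mean for each genotype over 4 arrays (10.26 degrees of freedom after moderation), and Storey's q was computed over lambda from 0.05 to 0.95. Control channels were compared after quantile normalization of mean intensities between arrays (6.17 degrees of freedom). The fit was tested on simulated data. Each array had its own slide and scan, so neither could be a block. The number of arrays limits the precision.

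Members and lists were chosen with earlier results of these data known. All 9 members are named, from the other lists every gene called in a genotype or in the difference and, per list, the gene of largest mean ratio besides, and the 4 genes nearest to *Hes5*. One result on a further listed gene is not reported here.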

Additional observations from a re-analysis of the deposited data

Results flagged for a closer look

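The response of *Hes5* to PJ34 differed between the genotypes in limma's interaction term, with a log2 response in wild-type minus *Trp53*-/- of -1.11. It was -0.86 without wild-type replicate 1 and -0.91 without *Trp53*-/- replicate 2, both under 2-fold. The call was also lost with an offset of 16 and with the scanner's ratios. The contrast was known when the gene was chosen, so this is a description and no independent test. *Notch3* also differed between the genotypes in this term, by 1.30, with ratios after loess above 0 on both wild-type arrays and below 0 on both *Trp53*-/- arrays. With median centring its means were 1.22 in wild-type and 0.13 in *Trp53*-/-, against medians over all genes of 0.46 and 0.63. The *Notch3* difference was 0.95 without wild-type replicate 1, under 2-fold, and its call was lost with an offset of 16 and with the scanner's ratios. Groups of 2 arrays are too small for a search for outlying samples.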

How the results depend on the processing

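Filters, blocks, adjustments and the mean of probes cannot move a member's ratio, since each member has 1 probe, so only the background correction, the scaling and the left-out arrays bear on these values. *Hes5* was called in wild-type under each alternative, and it was the 1 member called there except without wild-type replicate 1. Without that array *Hes5* was at -1.50 and *Hes6* at -1.05, both past 2-fold. With an offset of 16, 105 genes were called higher in wild-type, 44 higher and 85 lower in *Trp53*-/-, 37 higher and 2 lower in the difference, with 0 members and 0 pathway genes, and 627 lower in untreated cells. With the scanner's log ratios there were 383 higher and 178 lower in wild-type, with 3 pathway genes, 377 higher and 150 lower in *Trp53*-/-, and 0 higher, 0 lower, 0 members and 0 pathway genes in the difference. With median centring there were 1179 higher and 2 lower in wild-type, with 5 pathway genes, and 3404 higher and 4 lower in *Trp53*-/-, with 8 pathway genes and 1 member (*Hey1*), and 31 lower in the difference. The strict filter, which asks for both channels on every array, left 11 higher in *Trp53*-/-, and the mean of a gene's probes gave 4 lower in the difference. In untreated cells 879 were lower with the processed signal at the 75th percentile, 257 lower and 0 pathway genes without a filter, and 239 lower and 0 pathway genes with Benjamini-Hochberg adjustment. The reported counts, higher and lower, were 58 and 43 in wild-type, 18 and 55 in *Trp53*-/-, 88 and 7 in the difference, and 374 and 391 in untreated cells. The cause of these shifts was not tested.

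Leaving out 1 array in turn, with the lone array of a genotype assumed to vary like the others, gave 1 to 2 members called in wild-type, with 55 to 100 genes higher and 43 to 61 lower. In *Trp53*-/- it gave 0 to 1 members, 14 to 59 higher, 58 to 106 lower (72 without replicate 2) and 0 to 1 pathway genes. In the difference it gave 0 to 1 members, 90 to 130 higher, 2 to 33 lower and 0 to 1 pathway genes. In untreated cells it gave 0 to 701 higher, 0 to 847 lower and 0 to 2 pathway genes, the 0 without either *Trp53*-/- array. Without *Trp53*-/- replicate 2 the ratios of *Eif2s3y* and *Ddx3y* in *Trp53*-/- turned to -0.20 and -0.20, and without replicate 1 they were 4.22 and 3.12.

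The replicate numbers of the labels were not taken to pair the arrays. The deviations of same-numbered arrays correlated at -0.178 across genes, a value that cannot decide whether such arrays were handled together. With the number as a replicate block, 58 and 43 genes were called in wild-type, 18 and 58 in *Trp53*-/-, 96 and 11 in the difference, and 440 and 567 in untreated cells, and *Hes5* was still the 1 member called in wild-type and in the difference. A crossed pairing, chosen after seeing the data, gave 96 and 10 in the difference and 429 and 519 in untreated cells. The 3 members below background set a limit that the signal over background imposes.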
